A study of Arabidopsis thaliana with 12 samples.

Results

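A group of 35 transcripts of Arabidopsis thaliana was examined that had higher signals in the pam48 mutant than in the wild type (WT) in the samples numbered 1 to 4. Both genotypes were of ecotype Columbia 0, with 6 samples of total RNA each, numbered 1 to 6. The labels describe pam48 as a mutant with altered photosynthesis and do not name the defective protein, the tissue, the plants' age or the growth conditions, nor do they tell whether each number stands for its own plants. The array table held 3439 probes, of which 692 are assigned to 1 gene in the platform annotation. The 35 transcripts are those of the 692 with a mean difference, pam48 minus WT, of at least 1 on the log2 scale (2-fold) in numbers 1 and 2 and again in numbers 3 and 4, outside the brightest 10% of probes in WT.

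In all, 44 probes with 1 gene met both differences. Of these, 7 were left out by name (AT4G38040, AT-HF, AT3G11150, AT4G17260, AT5G39980, PRA1.B6 and AT2G36480), and 2 others, NdhS and AT4G17070, lay in the brightest 10%. The members were thus chosen by the measured values of numbers 1 to 4, which are given below as a description, without a test. The genotype difference in numbers 5 and 6 was not part of the limit of 1 and was used for testing. Numbers 5 and 6 did enter the choice in other ways, since the brightness limit ranks all 6 WT samples, and the names left out were set with results of all numbers known. Nearest inside the limit were AT2G28660, with 1.39 and 1.01 in the lower and the higher couple of numbers, and AT4G33540, with 1.01 and 2.28. Just outside it were AT5G50350, with 0.99 and 1.16, and AT3G50270, with 0.98 and 2.26.

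Most chloroplast proteins are encoded in the nucleus, and in plants the state of the plastid feeds back on the transcript levels of many nuclear genes, a relation called retrograde signalling. Mutants with altered photosynthesis are used to study it, since both plastid proteins and stress or growth genes outside the plastid can respond. The 35 transcripts were chosen by their values and not by a shared pathway. The roles known for 22 of them range from thylakoid proteins to cell wall enzymes and a protein of a class that acts in pathogen recognition. None is given here for the other 13.

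Levels are given as log2 of the quantile normalised intensity. Low values were raised to a floor, below which levels have no order. On this scale it lay between -6.13 and -4.43, highest in WT 3. Median intensity as deposited was 0.233 to 0.305 in pam48, 0.0913 to 0.0999 in WT 1 to 4, and 0.191 and 0.192 in WT 5 and 6. Each of the 12 samples was closest, by the SD of the difference over probes, to the sample of its genotype with the consecutive number (1 with 2, 3 with 4, 5 with 6); what a number stands for is not labelled. None of 27 marker loci for stress and senescence, seed, epidermis and mesophyll had a probe with 1 gene, so the tissue could not be checked.

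Most of the transcripts were not among the dimmest on the array when all 6 WT samples were ranked. This ranking takes in WT 5 and 6, where the members' median level was -1.12, against -2.64 in WT 1 to 4. By mean rank in WT they lay at a median position of 56.1%, from AT5G65490 at 17.4% to AT3G04210 at 89.0%, and 9 of 35 were in the brightest 25% of probes. The median position of all 643 probes with 1 gene outside the brightest 10% was 44.6%. No member was at the floor in any pam48 sample or in WT 5 or 6. In WT 1 to 4, 24 members were above the floor throughout and 11 were at it in at least 1 sample, so that the fold differences of those 11 in these numbers depend on the floor.

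In numbers 1 to 4 the differences had a median of 1.39 in numbers 1 and 2 (range 1.01 to 2.43) and 1.57 in numbers 3 and 4 (range 1.01 to 5.47), while the medians over all 3439 probes were -0.13 and -0.23. In 22 of 35 the difference was larger in numbers 3 and 4. All 4 pam48 samples numbered 1 to 4 lay above all 4 WT samples of those numbers in 33 members, all but AT5G65490 and AT3G60590. Over all probes this was so in 17.0%, which says nothing about the members, since the rule used these values. Both differences were met by 7.12% of all probes and by 6.38% of the 643 with 1 gene outside the brightest 10%. All 6 pam48 samples lay above all 6 WT samples in 4 members (AT4G03150, AT3G04210, AT4G35660 and AT5G62360), and in 2.50% of all probes. This too includes numbers 1 to 4, which the rule used, so the 2 figures cannot be compared.

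None of the 35 reached a difference of 1 in numbers 5 and 6, where 5.21% of all probes did, and the largest was 0.91. The median of the 35 was -0.0079 and that of all probes -0.021. The difference was above 0 in 16 members (45.7%), against 46.3% of all probes. Both pam48 samples exceeded both WT samples in 13 members (37.1%), against 29.0% of all probes, and lay below both in 11 (31.4%), against 28.4%. Differences of -1 or less were found for 3 members (8.57%), APTX, AT1G49380 and AT3G60590, against 6.11% of all probes. These shares, of the 35 without the names left out, lie near those of all probes.

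**Figure D1:**
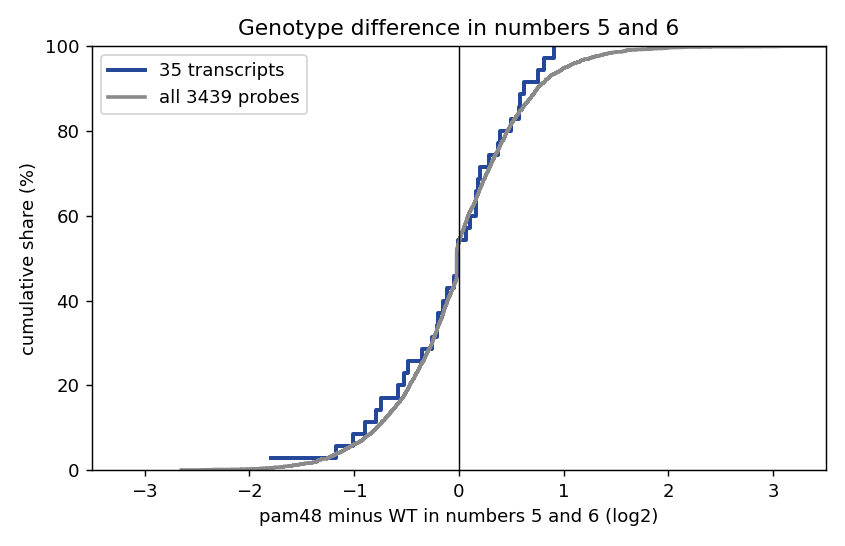
Cumulative share of transcripts or probes (vertical axis, percent) by their difference between pam48 and WT in numbers 5 and 6 (horizontal axis, log2), for the 35 transcripts and for all 3439 probes. The curve of the 35 follows that of all probes, with medians of -0.0079 for the 35 and -0.021 for all probes, and ends at 0.91.

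The count of 0 depends on which names the rule leaves out. Of the 7 left out by name, 5 had a difference of 1 or more in numbers 5 and 6: AT4G38040 with 3.09, AT2G36480 with 1.99, AT-HF with 1.16, AT4G17260 with 1.15 and AT3G11150 with 1.01. PRA1.B6 had 0.055 and AT5G39980 had 0.015. With the 6 of them outside the brightest 10% added back, 4 of 41 reached 1, a larger share than the 5.21% of all probes. The difference was then above 0 in 22 of 41, against 46.3% of all probes. The median was 0.055, against -0.021. The names were set with results of all numbers known, so these figures are a description. Of the 2 left out for brightness, NdhS, a subunit of the chloroplast NADH dehydrogenase-like complex, had 0.035 and AT4G17070 had 0.055.

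Genotypes were compared in numbers 5 and 6 with limma across all probes, which gives an adjusted p (Benjamini-Hochberg). It called 503 of 3439 probes (14.6%), 212 higher (6.16%) and 291 lower (8.46%) in pam48. Of the 35 members, 4 were called, 2 higher (5.71%) and 2 lower (5.71%), which is near the shares over all probes. The other 31 members did not pass. The calls also depend on the names left out. Of these, AT4G38040, AT2G36480 and AT-HF were called higher (limma, adjusted p = 0.015, 0.00018 and 0.029), and the rest did not pass. With a replicate block, which pairs the samples by number, 277 probes were called, 122 of them higher, and 2 members, 1 of them higher. Without WT 5 the count was 227 and without WT 6 it was 211, with 2 members called in each case. The split of calls depended on scaling, since 42.1% were higher after quantile normalisation, 24.1% after median centring and 64.5% on the deposited values. The spread in this test is that between samples of consecutive number, which may be technical, and a comparison of 2 samples with 2 has a smallest two-sided exact permutation p of 0.333.

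**Figure D2:**
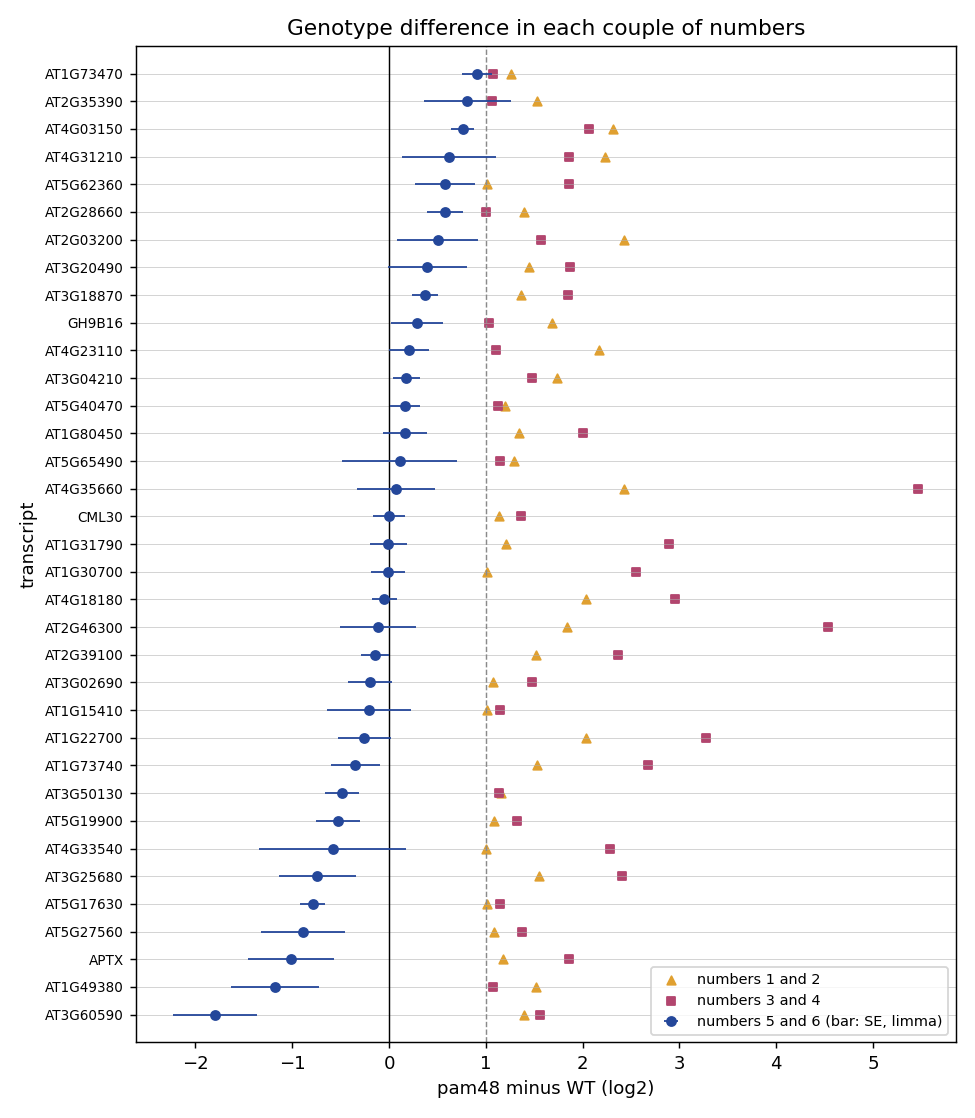
Difference between pam48 and WT (horizontal axis, log2) for each of the 35 transcripts (vertical axis) in numbers 1 and 2 (triangles), 3 and 4 (squares) and 5 and 6 (circles, with SE from limma). The dashed line marks the limit of 1 that the rule applied to triangles and squares, and every circle lies to the left of it.

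AT4G03150, for which no role is given here, was higher in pam48 than in WT in every couple of numbers. It stood at 1.30, 1.37, 0.96 and 0.87 in pam48 1 to 4, against -0.90, -1.06, -1.24 and -1.06 in WT 1 to 4, a 4.57-fold difference of means. Its values were 1.41 and 1.37 in pam48 5 and 6, against 0.62 and 0.64 in WT 5 and 6. Every pam48 sample lay above every WT sample, and the genotypes were closer in the last couple of numbers. In numbers 5 and 6 AT4G03150 was 1.69-fold higher in pam48 than in WT, by 0.76 ± 0.12 (log2, SE, 2 samples per genotype, limma, adjusted p = 0.0059). This call was lost with median centring (0.41, adjusted p = 0.076) and with the 4 samples alone (adjusted p = 0.057).

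AT1G73470, also with no role given, was the member with the largest difference in numbers 5 and 6. Its level was 0.41, 0.37, -0.25 and 0.08 in pam48 1 to 4, against -0.77, -0.95, -1.03 and -1.29 in WT 1 to 4. It reached 1.32 and 1.41 in pam48 5 and 6, against 0.44 and 0.47 in WT 5 and 6. Both genotypes were thus brighter in the last couple, with a similar distance between them. In numbers 5 and 6 it was 1.88-fold higher in pam48 than in WT, by 0.91 ± 0.16 (log2, SE, 2 samples per genotype, limma, adjusted p = 0.0081). The call was lost without WT 5 (0.055), without WT 6 (0.0505), under a replicate block (0.053) and with median centring (0.052).

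Among the members, 3 are known as plastid membrane proteins, of which 1, AT5G17630, was called in numbers 5 and 6, as lower in pam48, and the other two did not pass. This grouping and those that follow were made after the values were seen. Over all probes 14.6% were called, 8.46% as lower, and the groups are too small to be set against these shares. Their counts are thus no result about the roles. AT1G22700, a thylakoid protein with tetratricopeptide repeats that is needed for the accumulation of photosystem I, was at -1.77, -1.80, -1.07 and -1.13 in pam48 1 to 4, against -4.29, -3.36, -4.26 and -4.47 in WT 1 to 4, with WT 4 at the floor. That is a 6.30-fold difference of means. The samples pam48 5 and 6 had -1.54 and -1.21, against -1.05 and -1.19 in WT 5 and 6. In pam48 the level was lower in numbers 1 and 2 than in 3 and 4, and its means over 1 to 4 and over 5 and 6 differed by 0.068. The WT mean was higher by 2.98 in numbers 5 and 6 than in 1 to 4. The difference of AT1G22700 in numbers 5 and 6 was -0.25 ± 0.28 (SE; limma, adjusted p = 0.63).

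AT5G17630, a carrier of pentose phosphate across the chloroplast inner envelope, had differences of opposite sign in numbers 1 to 4 and in numbers 5 and 6. It was at -0.09, 0.04, -0.76 and -0.59 in pam48 1 to 4, against -0.98, -1.08, -1.92 and -1.72 in WT 1 to 4. Its levels were -1.26 and -1.14 in pam48 5 and 6, against -0.41 in both WT 5 and WT 6. In numbers 5 and 6 AT5G17630 was lower in pam48 than in WT by 0.79 ± 0.13 (log2, SE, 2 samples per genotype, limma, adjusted p = 0.0068). This call was lost on the values as deposited (adjusted p = 0.054) and with the 4 samples alone (0.060). AT1G49380, a thylakoid protein of the system that attaches haem to c-type cytochromes, had 1.52 and 1.07 in the lower-numbered couples and -1.18 ± 0.46 in numbers 5 and 6 (limma, adjusted p = 0.13), with 3 of the 4 samples WT 1 to 4 at the floor.

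**Figure D3:**
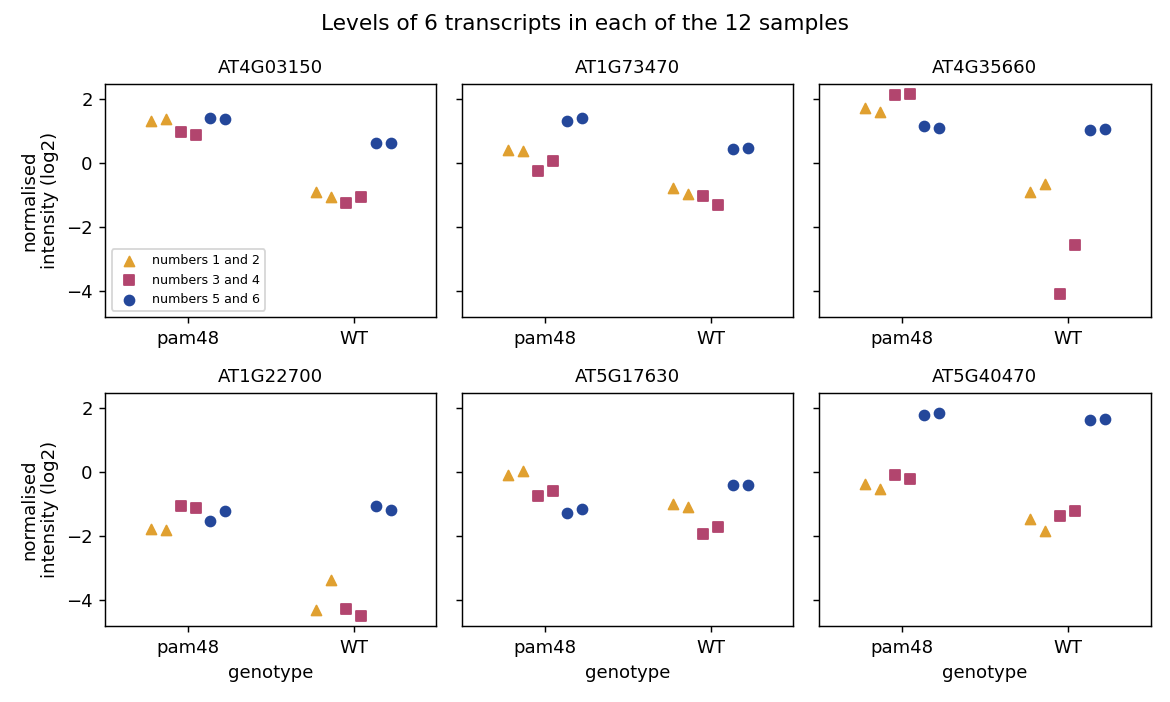
Level (vertical axis, log2 of normalised intensity) of 6 transcripts in each pam48 and WT sample, with a marker for each couple of consecutive numbers. The circles of numbers 5 and 6 lie together across genotypes in AT4G35660 and AT5G40470, apart in AT4G03150 and AT1G73470, and in reverse order in AT5G17630.

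Transcripts for DNA maintenance and organelle transcription numbered 3, of which none was called in numbers 5 and 6. AT4G31210, a type IA DNA topoisomerase, was at -1.15, -1.26, -1.72 and -1.67 in pam48 1 to 4. In WT 1 to 4 it was at -3.75, -3.13, -4.43 and -2.67, with WT 3 at the floor. In numbers 5 and 6 it was -3.04 and -3.22 in pam48, against -3.84 and -3.65 in WT, a difference of 0.62 ± 0.48 (SE; limma, adjusted p = 0.48). Its mean level in numbers 5 and 6 minus that in numbers 1 to 4 was -1.68 in pam48 and -0.25 in WT. AT3G18870, of the family of mitochondrial transcription termination factors, stood at -0.20, -0.32, 0.42 and 0.41 in pam48 1 to 4, against -1.70, -1.56, -1.50 and -1.36 in WT 1 to 4. In numbers 5 and 6 it was 0.63 and 0.79 in pam48, against 0.24 and 0.44 in WT, a difference of 0.37 ± 0.13 (SE; limma, adjusted p = 0.11). APTX, an aprataxin-like protein, which in animals repairs stalled DNA ligation ends, had 1.18 and 1.86 and then -1.01 ± 0.45 (limma, adjusted p = 0.18), with 3 of WT 1 to 4 at the floor.

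Cell wall and secreted proteins gave 5 members, with differences of 1.02 to 2.42 in numbers 1 and 2, 1.03 to 4.53 in numbers 3 and 4, and -0.12 to 0.58 in numbers 5 and 6, where none was called. AT4G18180, a pectin lyase-like protein, was at 0.69, 0.51, 1.5 and 1.6 in pam48 1 to 4, against -1.40, -1.47, -1.47 and -1.34 in WT 1 to 4. It had -0.08 and -0.14 in pam48 5 and 6, against 0.04 and -0.17 in WT 5 and 6, where the genotypes overlapped. AT2G46300, of the late embryogenesis abundant hydroxyproline-rich family, was at 0.63, 0.63, 1.62 and 1.45 in pam48 1 to 4, against -1.42, -0.99, -3.68 and -2.31 in WT 1 to 4, a 9.10-fold difference of means. For numbers 5 and 6 it stood at -1.09 and -0.67 in pam48, against -0.79 and -0.74 in WT. The genotypes overlapped there, with a difference of -0.12 ± 0.39 (SE; limma, adjusted p = 0.95).

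GH9B16, a glycosyl hydrolase of the family that holds plant endoglucanases, was at the floor in all of WT 1 to 4 and at -2.65 to -3.52 in pam48 1 to 4, so that it was at least 2.57-fold higher there. In numbers 5 and 6 it was measured in every sample, at -1.5 and -1.91 in pam48, against -1.75 and -2.24 in WT. AT5G62360, of the pectin methylesterase inhibitor family, gave 1.02, 1.86 and then 0.58 ± 0.31 (SE; limma, adjusted p = 0.27), and all 6 pam48 samples lay above all 6 WT samples. AT2G03200, an aspartyl protease, gave 2.42, 1.57 and 0.50 ± 0.42 (adjusted p = 0.51).

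Signalling and regulation gave 4 members, with differences between -0.15 and 0.18 in numbers 5 and 6 and none called. AT3G04210, a TIR-NBS protein of the class that acts in pathogen recognition, had the highest mean rank of the members in WT. It was at 1.26, 1.16, 0.95 and 1.19 in pam48 1 to 4, against -0.50, -0.54, -0.53 and -0.29 in WT 1 to 4. Levels of 1.02 and 0.94 were found in pam48 5 and 6, against 0.83 and 0.77 in WT 5 and 6. In pam48 its mean level moved by -0.16 between numbers 1 to 4 and the last couple, and in WT by 1.27. CML30, a calmodulin-like calcium sensor, differed in the other way. It was at 0.23, 0.33, 0.37 and 0.43 in pam48 1 to 4, against -1.03, -0.70, -1.13 and -0.80 in WT 1 to 4, and in numbers 5 and 6 at -0.73 and -0.78 in pam48, against -0.86 and -0.65 in WT. The mean level in the last couple minus that in numbers 1 to 4 was -1.09 in pam48 and 0.16 in WT. AT1G80450, of the VQ motif family of WRKY-binding regulators, had 1.35, 2.01 and 0.16, and AT2G39100, a RING-type protein, had 1.51, 2.36 and -0.15.

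Metabolism and transport gave 7 members, none called in numbers 5 and 6. AT2G35390 makes phosphoribosyl pyrophosphate, the precursor of nucleotides and histidine. It had differences of 1.53, 1.06 and 0.81 ± 0.45 in the 3 couples (SE for the last; limma, adjusted p = 0.29), the second largest in numbers 5 and 6. AT2G28660, a heavy-metal-associated domain protein, had 0.58 ± 0.18 there (adjusted p = 0.075). The other 5 had differences below 0 in numbers 5 and 6, given with SE. Among them were AT1G30700, a berberine bridge enzyme-like oxidase (-0.011 ± 0.18), and AT3G02690, an EamA-type transporter (-0.20 ± 0.22). AT1G15410, of the aspartate-glutamate racemase family, had -0.21 ± 0.43, and AT1G73740, a glycosyltransferase, had -0.35 ± 0.26. AT4G33540, of the metallo-beta-lactamase family, had -0.58 ± 0.76, with pam48 5 and 6 at -3.06 and -1.37 and WT 5 and 6 at -2.85 and -0.41. Its difference was 0.64 without WT 6 and 0.26 without pam48 5, but -1.80 without WT 5 and -1.43 without pam48 6.

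Of the 13 transcripts without a role here, AT4G35660 had the largest differences of all members in numbers 1 to 4. It stood at 1.72, 1.6, 2.13 and 2.15 in pam48 1 to 4, against -0.89, -0.65, -4.09 and -2.57 in WT 1 to 4, a 15.4-fold difference of means. The last couple gave 1.15 and 1.11 in pam48, against 1.04 and 1.07 in WT. All pam48 samples exceeded all WT samples, but by little in the last couple, where the difference was 0.071 ± 0.40 (SE; limma, adjusted p = 0.99). AT5G40470 was at -0.37, -0.53, -0.10 and -0.23 in pam48 1 to 4, against -1.46, -1.84, -1.38 and -1.20 in WT 1 to 4. It was brighter in both genotypes in the last couple, at 1.78 and 1.83 in pam48, against 1.62 and 1.66 in WT.

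AT3G60590 had the lowest difference in numbers 5 and 6. It was at -1.72, -1.86, -2.98 and -2.81 in pam48 1 to 4, against -2.46, -3.91, -4.43 and -4.47 in WT 1 to 4, with WT 3 and 4 at the floor. Samples pam48 5 and 6 stood at -3.76 and -4.44, against -2.51 and -2.10 in WT 5 and 6. It fell 3.47-fold there, by 1.80 ± 0.43 (log2, SE, 2 samples per genotype; limma, adjusted p = 0.030), a call lost without pam48 6 (0.13), without WT 5 (0.085) or WT 6 (0.16), under a replicate block (0.067), with cyclic loess (0.062), with median centring (0.071), with the 4 samples alone (0.065) and on the values as deposited (0.13). The other 8 were AT3G20490 (0.39), AT4G23110 (0.21), AT5G65490 (0.11), AT1G31790 (-0.0079), AT3G50130 (-0.48), AT5G19900 (-0.52), AT3G25680 (-0.74) and AT5G27560 (-0.89), with log2 differences in numbers 5 and 6 that did not pass. AT4G03150 and AT1G73470, described above, complete the 13.

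Over the 35 transcripts, the samples of pam48 had median levels of -1.15, -1.03, -0.95, -1.11, -1.48 and -1.21 in the order of their numbers. The WT samples had -2.03, -2.32, -3.11 and -2.67 in numbers 1 to 4 and -1.16 and -1.04 in numbers 5 and 6. The medians of WT 5 and 6 lay within the range of the pam48 medians. Those of WT 1 to 4 lay below it, which the rule largely fixes, since it chose the members by numbers 1 to 4.

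**Figure D4:**
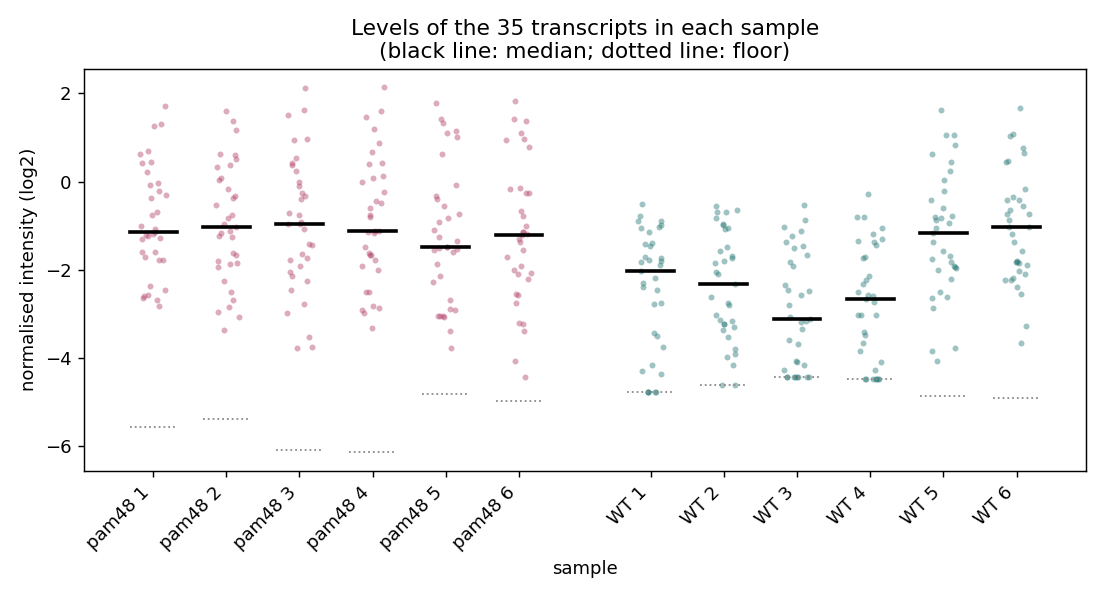
Levels of the 35 transcripts (points, log2 of normalised intensity) in each of the 6 pam48 and 6 WT samples, with the median (black line) and the floor (dotted line) of each sample. Medians run from -1.48 to -0.95 in pam48 and from -3.11 to -2.03 in WT 1 to 4, and are -1.16 and -1.04 in WT 5 and 6. The rule chose the members by numbers 1 to 4.

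Within pam48, the level in numbers 5 and 6 minus that in numbers 1 to 4 had a median of -0.16 over the members and was below 0 in 20 of 35 (57.1%), against 0.18 and 43.6% for all probes. Within WT, the same difference had a median of 1.67 and was above 0 in 31 of 35 (88.6%), against -0.14 and 44.3% for all probes. Both samples pam48 5 and 6 lay below all of pam48 1 to 4 in 15 members (42.9%), against 25.4% of all probes. Both samples WT 5 and 6 lay above all of WT 1 to 4 in 25 members (71.4%), against 23.8% of all probes. The rule selected for low values in WT 1 to 4 and for high values in pam48 1 to 4, so these figures are a description and were not tested. The exceptions in WT were AT2G35390, AT4G31210, AT2G28660 and AT3G50130, which were lower in WT 5 and 6 than in WT 1 to 4.

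**Figure D5:**
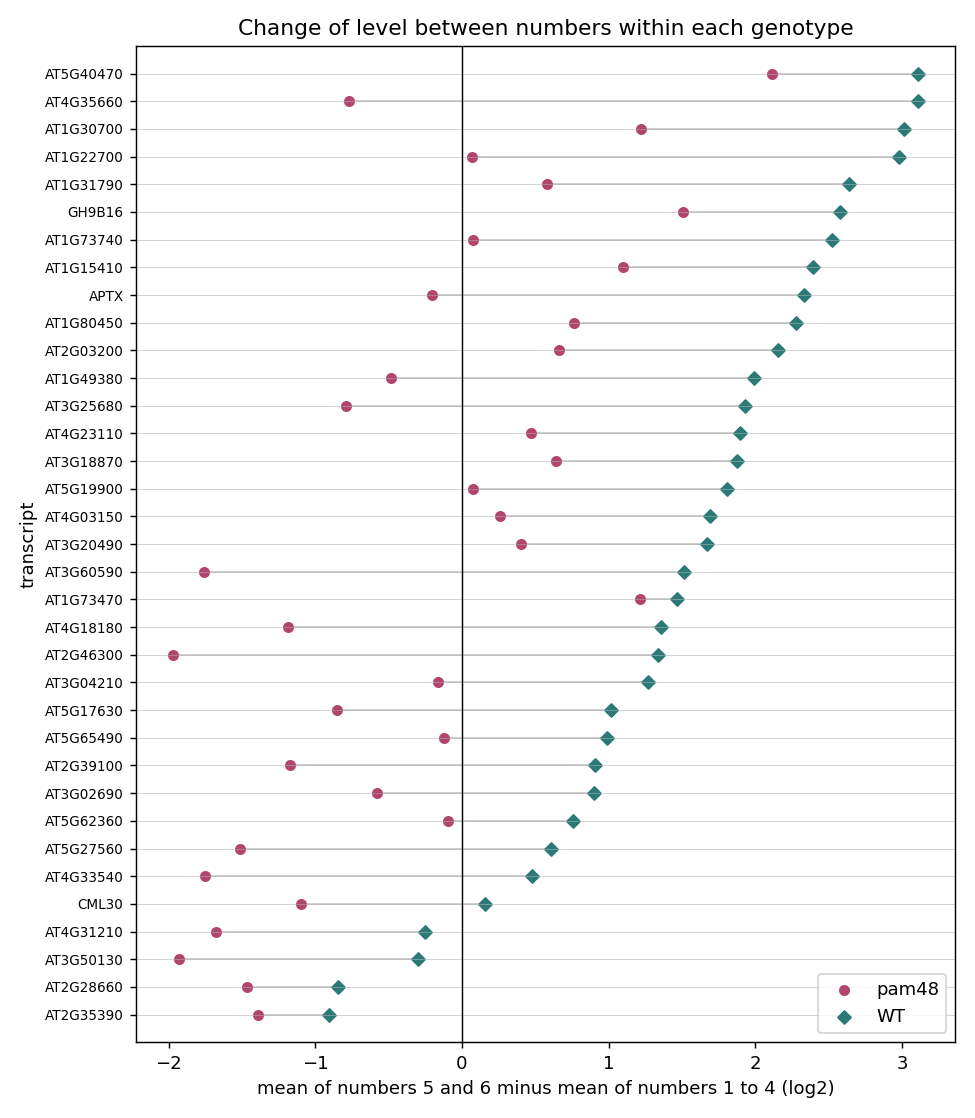
Mean level in numbers 5 and 6 minus mean level in numbers 1 to 4 (horizontal axis, log2) for each of the 35 transcripts (vertical axis), in pam48 (circles) and WT (diamonds). Of the circles 15 lie above 0, with a median of -0.16, and of the diamonds 31 do, with a median of 1.67.

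The members' median change was larger within WT than within pam48 under each scaling and floor tried, but pam48 levels went both ways. The size of the move, whatever its direction, was larger in WT in 25 of 35 members after quantile normalisation and in 24 to 29 over the scalings and floors tried. On the values as deposited, the members' medians were -0.37 in pam48 and 2.69 in WT, where those of all probes were -0.13 and 0.87. Relative to all probes, that is -0.23 in pam48 and 1.82 in WT, and the WT figure was between 1.5 and 2.06 in all 6 scalings and floors. Each of these reuses the same members and samples, which the rule selected for low values in WT 1 to 4. The figures are thus a description and were not tested. Median intensity as deposited was also higher in WT 5 and 6 than in WT 1 to 4, and the part of this in the members' levels was not tested. The genotype difference of the members on the deposited scale was 3.12 in numbers 1 to 4 and 0.094 in numbers 5 and 6, where all probes had medians of 1.44 and 0.30.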

How the data were processed

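Spot intensities were used as deposited, on a linear scale from 0, for 3439 probes and 12 samples. Scanner, background correction and normalisation are not stated in the labels. Intensities were quantile normalised, values under each sample's 5th percentile of spots with a positive deposited value were raised to it (the floor), and log2 was taken. The number of samples limits the precision.

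Probes were named from the platform annotation with symbols from the TAIR10.1 gene table. Of 3439 probes, 692 had 1 gene (690 matched a locus), 870 had several and 1877 were not listed. That table holds no gene descriptions, so the planned classes by keyword were not counted. Roles stated are general knowledge. Promoter and protein sequences were not used here. Related transcripts can hybridise to 1 spot.

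The members, lists and tests were chosen with earlier results of these data known. Differences in numbers 5 and 6 were tested by lmFit and eBayes, two-sided, from limma 3.58.1 (R 4.3.3), on 6 cells of genotype by couple of consecutive numbers, with 6 residual degrees of freedom, a threshold of 0.05 and adjustment over all probes. Same-numbered pam48 and WT samples shared deviations from their genotype means (r across probes 0.188 to 0.418). Couples of numbers that differ alike in both genotypes also give such r, so it cannot show pairing by single number. The main fit did not pair the samples, and the replicate block, an alternative, did. Named in full were members with a difference of 1 or more in numbers 5 and 6 (none), the 6 with the largest smaller difference of both couples and the 6 brightest in WT; AT5G17630 and AT3G60590 were added after their values were seen because they passed the test, and GH9B16 because WT 1 to 4 were at the floor. The script was tested on simulated data. Alternatives covered scaling, floor, samples left out, the model and the membership limit.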

Additional observations from a re-analysis of the deposited data

How the results depend on the processing

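The count of 503 probes called in numbers 5 and 6 was 155 (77 higher) with only those 4 samples in the fit and 277 (122 higher) with the replicate number as a block, against 212 higher of 503. It was between 211 and 409 without 1 of the 4 samples, lowest without WT 6 (211) and WT 5 (227). The block ended the calls of AT1G73470 and AT3G60590 and of no other member. No member changed from a call in one direction to the other in any of the 14 settings, and AT2G28660 and AT3G18870 gained a call with a variance trend (0.58 and 0.37, limma, adjusted p = 0.028 and 0.034), AT2G28660 also on the values as deposited (0.75, adjusted p = 0.034). The number of members with a difference of 1 or more in numbers 5 and 6 stayed at 0 apart from 3 cases. It was 2 on the values as deposited (AT2G35390 and AT4G31210, 1.18 and 1.02, where the median probe was higher by 0.30), 0 to 2 without 1 of the 4 samples (2 without WT 6, AT2G35390 at 1.06 and AT5G65490 at 1.03), and 4 of 41 with the transcripts left out by name, a setting chosen after the data were seen. The members' median in numbers 5 and 6 was -0.25 with median centring, where 11 of 35 were above 0. With no floor and a pseudocount of 0.05 the rule found 26 transcripts, 22 of them among the 35, and with cyclic loess 50, with 33 of the 35. It found 53 with median centring, 26 of them among the 35, and 343 on the values as deposited, all 35 among them, where the median probe was higher by 1.44 in numbers 1 to 4. It found 10 with a limit of 1.5. Without 1 of the samples numbered 1 to 4 it found 30 to 40, and 27 of the 35 met it without WT 1. The number of samples and the floor in WT 1 to 4 limit the sizes given.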

Other observations

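Some of the 35 transcripts had levels that differed between the numbers in the same direction in both genotypes, by unequal amounts. In numbers 5 and 6 relative to numbers 1 to 4, 5 members (14.3%) were higher by 1 or more (log2) in pam48 and in WT, against 6.14% of all probes. These were AT5G40470 (2.11 in pam48 and 3.11 in WT), GH9B16 (1.5 and 2.58), AT1G30700 (1.22 and 3.02), AT1G73470 (1.21 and 1.47) and AT1G15410 (1.10 and 2.39). In 4 members (11.4%) the level was lower in numbers 5 and 6 in both genotypes, against 28.7% of all probes: AT2G35390 (-1.39 and -0.91), AT4G31210 (-1.68 and -0.25), AT2G28660 (-1.46 and -0.84) and AT3G50130 (-1.93 and -0.30). For AT4G31210 and AT2G35390 the difference in WT was smaller than the range of WT 1 to 4, which in AT2G35390 ran from -3.53 to -1.89. A lower level in pam48 together with a higher one in WT was seen in 16 members (45.7%), against 14.9% of all probes. Numbers 1 to 4 chose the members, so these shares are a description. They were chosen after the values were seen and not tested.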
